A study of Mus musculus with 39 samples.

Results

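The stearoyl-CoA desaturases Scd1, Scd2 and Scd3, the fatty acid desaturases Fads1, Fads2 and Fads3 and the elongases Elovl1 and Elovl5 were followed in the subcutaneous fat of C57BL/6J mice on 5 diets. The genes were chosen by name and every probe carrying one of the 8 names was taken, which gave 8 of the 29411 gene names and 10 of the 40628 probes on the array. Fads3 and Elovl5 had 2 probes each. Mice were weaned at 3 to 4 weeks of age and fed either a low-fat control diet with 10% of calories from fat (LFC), a high-fat, high-sucrose diet with 60% of calories from fat (HFC), or HFC to which a plant-derived formulation, KAL-1, had been added in doses of 5, 20 or 75 µg (HF5, HF20 and HF75). Total RNA from 39 samples was hybridised to 1-colour Agilent arrays. LFC and HFC had 1 array each at 4 early time points (Days 6, 10 and 14 and Week 0) and at 6 late ones, every 3 weeks up to Week 18. HFC had an array at Day 1 as well, and each KAL-1 diet had 1 array at each late time point. From the labels it is unclear if single or pooled mice were hybridised, so the spread of a diet below is its spread over time points. Values given in a row below follow the order of the time points.

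Stearoyl-CoA desaturases place the first double bond into saturated acyl chains and so make oleate and palmitoleate, the main monounsaturated fatty acids of stored triglyceride. Fads1 and Fads2 place further double bonds into dietary polyunsaturated chains on the route to arachidonate and docosahexaenoate, and Fads3 is known to act on the sphingoid base of ceramides. Elongases add carbon units to an acyl chain, Elovl5 on polyunsaturated chains and Elovl1 on the very long saturated chains of sphingolipids. In fat and liver several of these genes are driven by SREBP and LXR, and polyunsaturated fat in the diet is known to lower Scd1.

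The level of a gene on an array is log2 of the processed signal of its probe minus log2 of the 75th percentile of the signals of that array, so a level of 0 is the brightness of the 75th percentile. Levels depend on the probe and are compared here between arrays of 1 probe, not between genes. The first 30 bases of the 60-base probes of the Scd genes and of Fads3 are shown because the diet differences described below were read from them. The longest run of bases that an Scd probe shared with any other probe of the 8 genes was 6 to 7 of its 60 bases.
Scd1 probe: actcctgggctaagtatctgacagtctcac
Scd2 probe: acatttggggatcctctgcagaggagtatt
Scd3 probe: ttcagggtaggtgtctcaagccaaatccaa
Fads3 main probe: taaaatgacacggtgagcatagcatgtttt
Fads3 second probe: tacttctaagccctgttatatatacttgta

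RefSeq promoters (GRCm38.p6) were held for 5 of the 8 genes. Those of Scd3 and Fads3 are printed because these were the 2 genes with the lowest p in a diet comparison. Each run is the 250 bases before the start of the gene, 5′ to 3′ on the strand of the gene, and capitals mark matches on either strand to the CCAAT box (CCAAT), the GC box (GGGCGG), a palindromic E-box (CACGTG) and the TATA box (TATAAA).
Scd3 promoter, chr19:44203038-44203287, plus strand: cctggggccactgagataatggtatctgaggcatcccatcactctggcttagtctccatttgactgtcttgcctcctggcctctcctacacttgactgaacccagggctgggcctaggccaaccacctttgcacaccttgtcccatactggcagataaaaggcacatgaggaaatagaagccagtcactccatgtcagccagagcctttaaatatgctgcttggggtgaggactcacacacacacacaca
Fads3 promoter, chr19:10041298-10041547, plus strand: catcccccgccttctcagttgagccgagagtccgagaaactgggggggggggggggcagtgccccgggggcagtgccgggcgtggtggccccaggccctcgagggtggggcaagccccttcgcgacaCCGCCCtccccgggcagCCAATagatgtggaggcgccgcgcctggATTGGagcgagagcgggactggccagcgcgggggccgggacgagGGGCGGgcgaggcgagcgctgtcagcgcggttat
The Fads3 window held 2 CCAAT boxes and 2 GC boxes, and the Scd3 window held none of the 4 motifs. Of 32851 promoter windows of the same length, 33.8% held the CCAAT box, 32.7% the GC box, 6.02% the E-box and 12.4% the TATA box. The Elovl5 window held 2 CCAAT boxes and 1 E-box, and the Fads2 window held 1 GC box. An Elovl1 window held 1 CCAAT box and 5 GC boxes, and another Elovl1 window held 2 GC boxes.

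The 75th percentile signal ran from 107.9 to 1285.3 over the 39 arrays with a median of 638.9, and 49.3% to 87.8% of the spots of an array were well above background. All 8 mature adipocyte markers (Adipoq, Plin1, Cidec, Fabp4, Lipe, Pnpla2, Lpl and Retn) were well above background on every array, with a summed level of 6.76 to 9.52. The summed level of 8 skeletal muscle markers ran from 0.36 to 10.58 with a median of 3.67. It was highest on HF75 Week 3 (10.58), HF5 Week 12 (9.50), HFC Day 1 (9.03), HFC Day 6 (8.64) and LFC Day 6 (8.23). The HF20 array of Week 15 had 4936 spots flagged as outliers, against at most 474 on any other array, and the Fads1 and main Fads3 spots were among those left out there. In the deposited ratio table, the HF5 and HF20 columns of Week 12 each followed the scanner file of the other diet (r = 0.999, against 0.664 and 0.665 for the file of their own label). The array labels were kept here. In bulk fat, fewer cells of a type and less RNA per cell cannot be told apart.

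Scd1, the main desaturase isoform of fat and liver, varied widely over the 39 arrays. Its level ran from 1.14 on HFC Week 15 to 6.98 on LFC Day 10, which is 5.84 on the log2 scale or 57.4-fold, and its spot was saturated on 6 arrays, whose levels are lower bounds. On LFC it was 6.29 (saturated) at Day 6, 6.98 at Day 10, 5.70 at Day 14, 5.22 at Week 0, 3.34 at Week 3, 4.49 at Week 6, 5.95 at Week 9, 5.99 (saturated) at Week 12, 3.51 at Week 15 and 6.44 at Week 18. On HFC it was 1.66 at Day 1, 6.34 at Day 6, 6.48 at Day 10, 5.39 at Day 14, 4.95 at Week 0, 6.12 at Week 3, 6.48 at Week 6, 6.11 at Week 9, 4.08 at Week 12, 1.14 at Week 15 and 3.98 at Week 18, with the spots of Day 6, Day 10, Week 3 and Week 6 saturated. Both diets were high at Day 6 and Day 10. HFC minus LFC was 2.78 at Week 3 and 1.99 at Week 6, and it was -1.91 at Week 12, -2.37 at Week 15 and -2.46 at Week 18. The HFC minus LFC difference thus changed sign within the later weeks, and its mean over 10 time points was -0.28 (SD 1.72), with saturated spots at their measured values. That mean was -0.625 without Week 3 and -0.042 without Week 18. Over the 39 arrays the Scd1 level followed the summed level of the adipocyte markers (Pearson r = 0.74, Spearman rho = 0.74, a description over arrays that share their scaling). On HFC Week 15 the adipocyte markers had a summed level of 7.36, the eighth lowest of the 39. The part of the adipocyte marker level in the Scd1 differences was not tested.

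**Figure D1:**
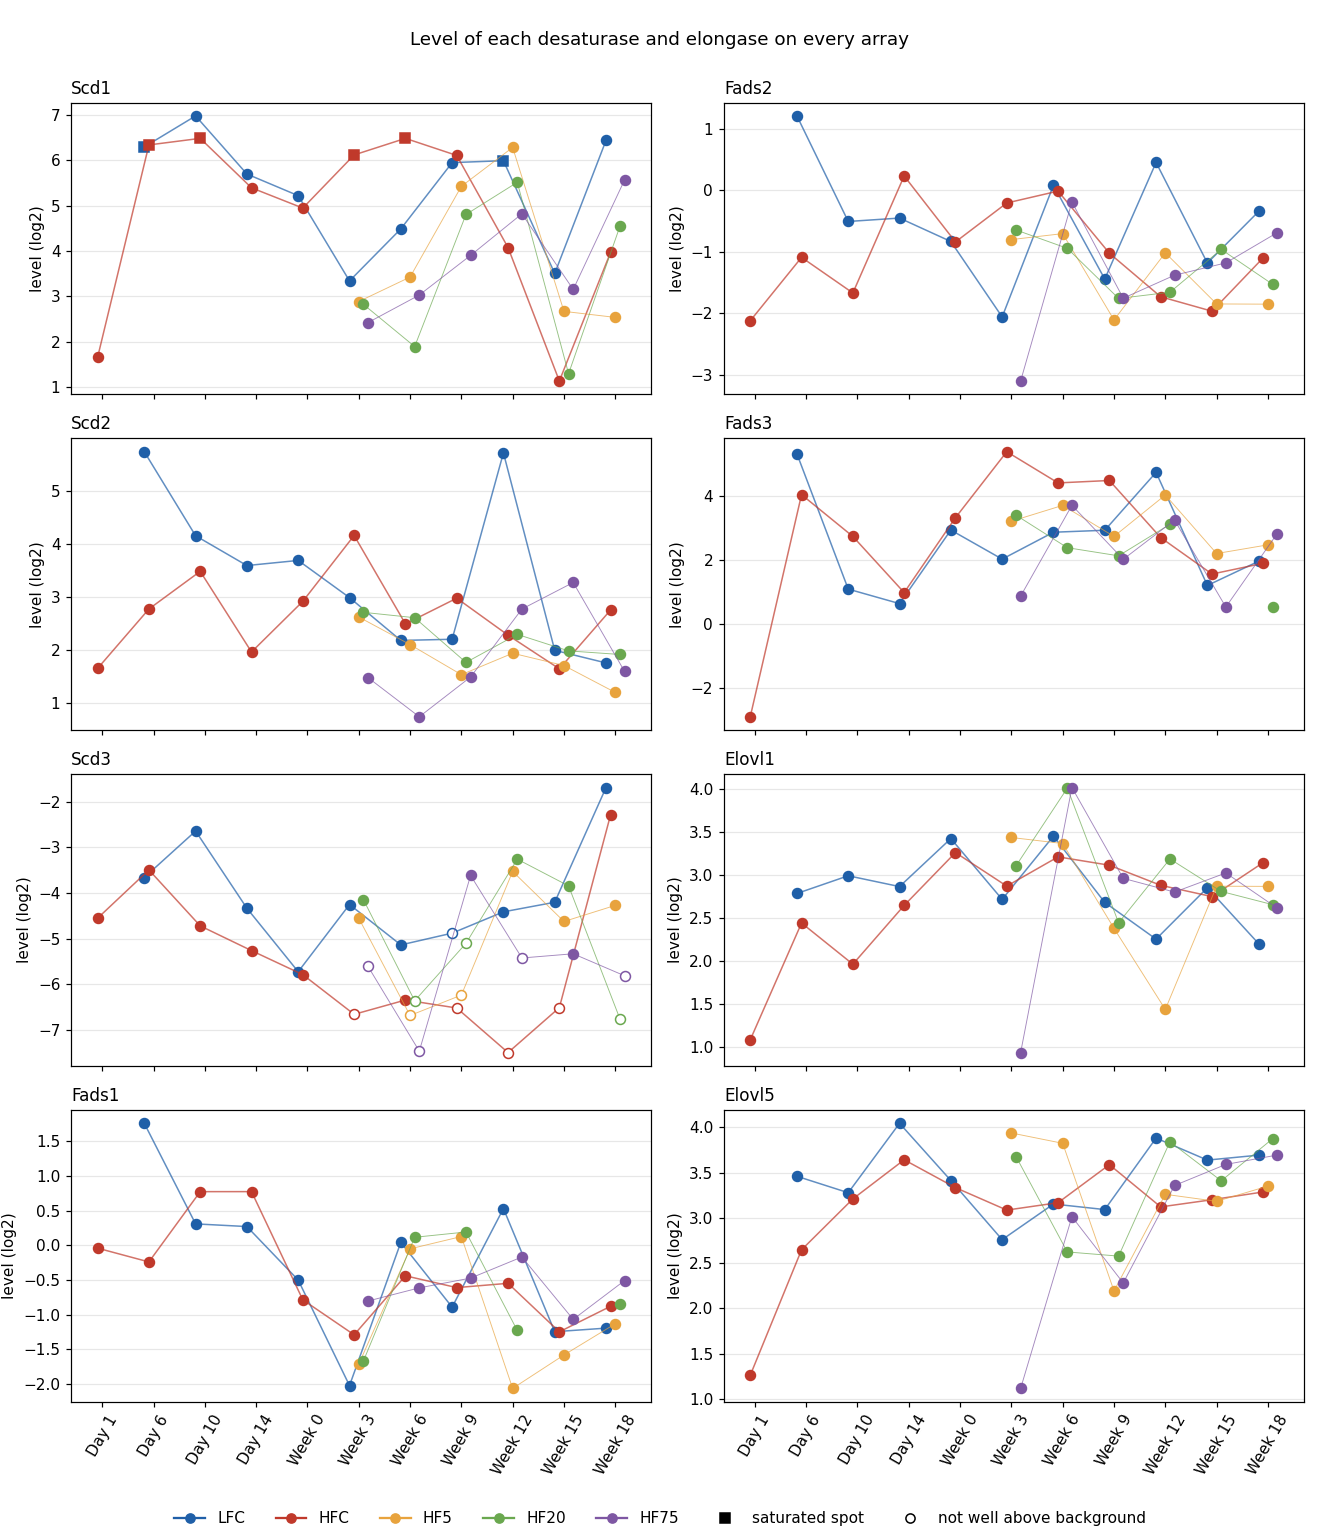
Level (log2, relative to the 75th percentile of the array) of each of the 8 genes on each of the 39 arrays, by time point and diet. Squares are saturated spots and open circles are spots not well above background. Scd1, Fads3, Elovl1 and Elovl5 were low on the HFC array of Day 1, and Scd3 was mostly open on HFC from Week 3 to Week 15.

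Scd2, the isoform best known from the brain and from young tissue, was highest on LFC Day 6 (5.74) and LFC Week 12 (5.72) and lowest on HF75 Week 6 (0.75). On LFC it was 5.74, 4.16, 3.60 and 3.69 from Day 6 to Week 0, and 2.99, 2.18, 2.21, 5.72, 1.999 and 1.76 from Week 3 to Week 18. On HFC it was 1.66 at Day 1, 2.78, 3.49, 1.97 and 2.92 from Day 6 to Week 0, and 4.16, 2.50, 2.98, 2.28, 1.65 and 2.76 from Week 3 to Week 18. HFC lay below LFC at all 4 early time points and above it at 4 of the 6 later ones. The test of that change, late minus early, gave 1.42 (SE 0.88, limma p = 0.135, adjusted p = 1). It rested partly on single time points, being 0.935 without Day 6 and 2.09 without Week 12 (p = 0.00319). The 7 Schwann cell and myelin markers lay on the same sides, with 7 of 7 above 0 for late minus early (median 1.486, 0 at an unadjusted p under 0.05) and 7 of 7 below 0 for HFC against LFC (median -0.921, 1 at that p). Their part in the Scd2 values was not tested.

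Scd3, known mainly from the sebaceous gland of the skin, was dim, at -7.49 to -1.69, and well above background on 25 of the 39 arrays. On LFC it was -3.66, -2.64, -4.33 and -5.72 from Day 6 to Week 0, and -4.25, -5.14, -4.88, -4.41, -4.20 and -1.69 from Week 3 to Week 18, with the Week 9 spot not well above background. On HFC it was -4.55 at Day 1, -3.49, -4.72, -5.26 and -5.79 from Day 6 to Week 0, and -6.66, -6.34, -6.52, -7.49, -6.51 and -2.28 from Week 3 to Week 18, with the spots of Week 3, Week 9, Week 12 and Week 15 not well above background. HFC was below LFC at 9 of 10 time points, the exception being Day 6 (0.17 higher), and the ranges of the diets overlapped. The 75th percentile that is subtracted was mostly higher on HFC, as at Week 3 (950.0 against 506.0), Week 9 (650.0 against 204.0) and Week 18 (320.5 against 107.9). It was lower on HFC at Week 15 (638.9 against 1045.1). Over all genes the median difference was -0.035, and -0.109 with dim genes let in. The part of this scaling in the Scd3 difference was not tested. With spots not well above background at their measured values, the mean level was -5.51 ± 1.61 on HFC and -4.09 ± 1.19 on LFC (SD, n = 10). The difference was -1.41 (SE 0.32, 2.66-fold, limma p = 0.000852, adjusted p = 0.803). This was the lowest p among the 8 genes, it did not pass adjustment over 19873 genes, and leaving out each time point in turn gave -1.59 to -1.23. At the 6 time points where both arrays were well above background, the mean difference was -0.784, with HFC lower in 5 of 6. Of the sebaceous markers, Awat2 (named Dgat2l4 on the array) was well above background on 23 of the 39 arrays, Awat1 on 15 and Mc5r on 1, with a summed level of -5.78 to -0.52 on LFC and -6.38 to -1.64 on HFC. Between HFC and LFC over 10 time points, the 2 sebaceous markers tested had differences of -0.689 and -0.61, and the 2 keratinocyte markers tested had -0.526 and -0.098, each with the sign of Scd3. None of the 4 reached an unadjusted p under 0.05. Of the skeletal muscle markers, 8 of 8 were below 0 in the same comparison (median -0.793, 0 at that p), and 7 of 8 adipocyte markers were above 0 (median 0.441, 1 at that p). The part of these cells in the Scd3 difference was not tested.

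No member passed limma at an adjusted p of 0.05 between HFC and LFC over the 10 time points, and neither did any other gene (0% of 19873). At an unadjusted p under 0.05, the count was 1 of the 8 (Scd3, below 0), where 5.86% of all genes reached that p in either direction. The median difference of the 8 genes was -0.249, with 6 below 0 (Scd1 with saturated spots at their measured values), and that of all genes was -0.035. Fads3 had the highest difference at 0.58 (SE 0.44, p = 0.215; 0.45 on its second probe, p = 0.4125), higher on HFC at 7 of 10 time points, and without Week 3 it was 0.272. Fads1 (-0.15, SE 0.26), Fads2 (-0.43, SE 0.37), Elovl1 (0.01, SE 0.20) and Elovl5 (-0.21, SE 0.17) had unadjusted p of 0.236 or more. For late minus early, 0 of the 8 reached an unadjusted p under 0.05 and 1.89% of all genes did, with the lowest values for Elovl1 (0.74, SE 0.36, p = 0.0646) and Scd3 (-1.15, SE 0.59, p = 0.0776). From Week 3 to Week 18 alone, in the fit with all 5 diets, Scd3 was again the 1 of 8 (-1.87, SE 0.74, p = 0.0183, adjusted p = 0.850), where 5.06% of 21087 genes reached that p. Its p was above 0.05 without Week 3 (0.0574), Week 12 (0.0508) or Week 15 (0.054), and only 2 of the 6 HFC spots used were well above background.

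**Figure D2:**
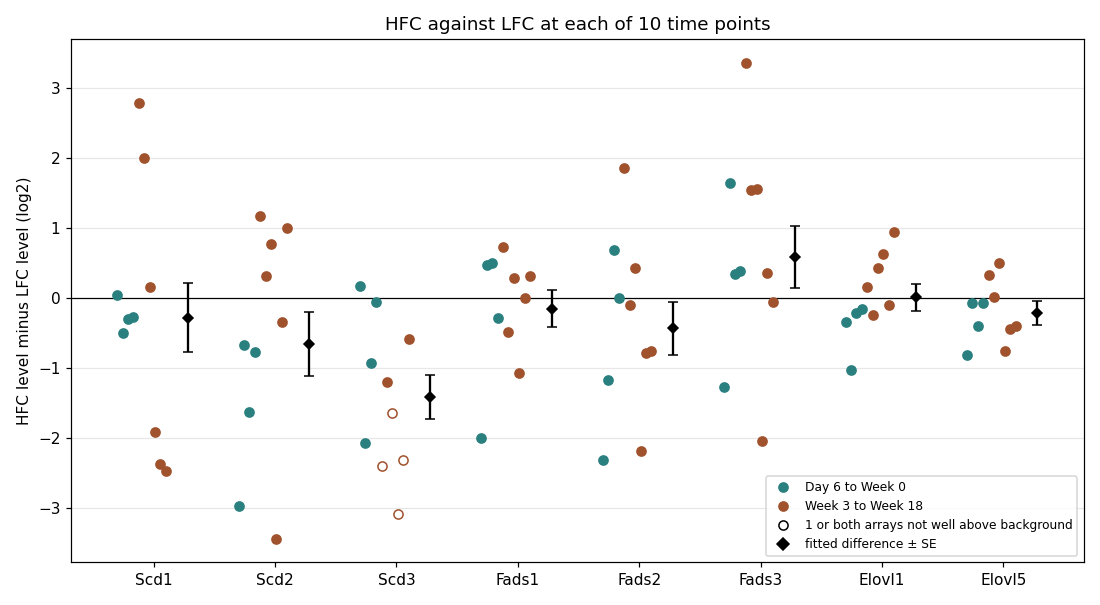
HFC level minus LFC level (log2) of each gene at each of 10 time points (circles, open where an array was not well above background) with the fitted difference ± SE (diamonds). Scd3 lay below 0 at 9 of 10 time points, and the Scd1, Scd2 and Fads3 differences lay on both sides of 0.

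Fads1 and Fads2, the desaturases of the polyunsaturated route, were highest on LFC Day 6 (1.76 and 1.22). On LFC, Fads1 was 1.76, 0.31, 0.27 and -0.50 from Day 6 to Week 0 and -2.02, 0.04, -0.89, 0.53, -1.25 and -1.19 from Week 3 to Week 18. On HFC, Fads1 was -0.04 at Day 1, -0.24, 0.77, 0.77 and -0.79 from Day 6 to Week 0 and -1.29, -0.44, -0.61, -0.55, -1.25 and -0.88 from Week 3 to Week 18. The levels of both diets were higher in the first 2 weeks. With the arrays of a time point averaged, Fads1 was 0.295 ± 0.635 early (SD, n = 4) and -0.816 ± 0.629 late (SD, n = 6), which was 2.16-fold lower. The fitted difference was -1.11 (SE 0.39, limma p = 0.0157, adjusted p = 0.468). The early and late ranges overlapped through Week 0 (-0.644). Without each time point in turn, the difference was -1.42 to -0.943. Fads1 was the 1 of 8 genes at an unadjusted p under 0.05 between late and early, where 8.82% of all genes were, and Scd1 (-1.12, SE 0.64, p = 0.107; -0.622 without Week 15) and Scd2 (-0.78, SE 0.46, p = 0.119) were below 0 as well. Marker lists of other cells were below 0 between late and early too, with 8 of 8 skeletal muscle markers (median -2.738, 2 at an unadjusted p under 0.05), 7 of 7 Schwann cell and myelin markers (median -1.7, 4 at that p) and 5 of 5 brown and beige fat markers (median -1.838, 1 at that p). So were 7 of 8 mature adipocyte markers (median -0.483, 0 at that p) and Alb, the 1 liver marker tested (-2.69, limma p = 0.0158). The summed liver level was highest on HFC Day 14 (5.73) and HFC Day 10 (2.08), then LFC Week 18 (1.76), LFC Week 12 (1.68) and LFC Day 6 (1.63). Adipose progenitor markers (5 of 5, median 0.392, 1 at that p) and lymphocyte markers (5 of 6, median 0.652, 0 at that p) were above 0. The part of these cells in the Fads1, Scd1 and Scd2 differences was not tested. Time point and scan day mostly coincide and cannot be told apart here.

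Fads2 had LFC levels of 1.22, -0.51, -0.45 and -0.83 from Day 6 to Week 0 and -2.06, 0.09, -1.44, 0.46, -1.18 and -0.34 from Week 3 to Week 18. Its HFC levels were -2.12 at Day 1, -1.09, -1.67, 0.24 and -0.84 from Day 6 to Week 0 and -0.20, -0.01, -1.02, -1.73, -1.97 and -1.10 from Week 3 to Week 18. HFC was lower at 7 of 10 time points, and HFC minus LFC ran from -2.31 at Day 6 to 1.86 at Week 3. Fads1 and Fads2 thus shared their LFC peaks at Day 6 and Week 12 and their LFC low at Week 3. LFC Week 12 was among the 5 highest of the 39 arrays for 5 of the 8 genes (Scd2, Fads1, Fads2, Fads3 and Elovl5), LFC Day 6 for 4 (Scd2, Fads1, Fads2 and Fads3) and LFC Day 10 for 4 (Scd1, Scd2, Scd3 and Fads1).

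Fads3 ran from -2.90 on HFC Day 1 to 5.38 on HFC Week 3 on its main probe, a range of 8.28 on the log2 scale, and the range was 5.19 on its second probe, between the same 2 arrays. On LFC it was 5.31, 1.09, 0.64 and 2.93 from Day 6 to Week 0 and 2.02, 2.86, 2.93, 4.73, 1.20 and 1.96 from Week 3 to Week 18. On HFC after Day 1 it was 4.04, 2.73, 0.98 and 3.32 from Day 6 to Week 0 and 5.38, 4.40, 4.48, 2.70, 1.56 and 1.90 from Week 3 to Week 18. HFC was thus high at Week 3, Week 6 and Week 9 and lower from Week 12 on. The 2 Fads3 probes correlated over 38 arrays with r = 0.744, and their difference lay more than 1 from its median (2.07) on 9 arrays, so fitted Fads3 differences between diets are given for both. From Week 3 to Week 18, HFC minus LFC was 0.78 on the main probe (limma p = 0.154) and 0.61 on the second (p = 0.3071).

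On the KAL-1 diets, Fads3 did not show the high values that HFC had at Week 3 to Week 9. HF5 had 3.21, 3.70, 2.73, 4.03, 2.20 and 2.47 from Week 3 to Week 18. HF20 had 3.40, 2.38, 2.13, 3.11 and 0.52 from Week 3 to Week 18, with Week 15 left out. HF75 had 0.87, 3.71, 2.02, 3.24, 0.53 and 2.82. All 3 doses were below HFC at Week 3, Week 6 and Week 9, and all 3 were above it at Week 12. At Week 12 the HFC and HF75 arrays were scanned on a different day from the LFC, HF5 and HF20 arrays. At Week 6 the HF20 and HF75 arrays were scanned on a different day from the HFC array. The mean was 3.40 ± 1.56 on HFC (SD, n = 6), 3.06 ± 0.72 on HF5 (n = 6), 2.31 ± 1.13 on HF20 (n = 5) and 2.20 ± 1.29 on HF75 (n = 6). Against HFC, the fitted difference of the main probe was -0.35 for HF5 (SE 0.53, limma p = 0.522, adjusted p = 1; 0.019 without Week 3), -1.38 for HF20 (SE 0.56, p = 0.0224, adjusted p = 0.997, lower in 4 of 5 weeks) and -1.20 for HF75 (SE 0.53, p = 0.0335, adjusted p = 0.866, lower in 4 of 6 weeks). The 3 doses together gave -0.98 (SE 0.44, 1.97-fold, p = 0.0361, adjusted p = 1). The 3 doses share the same 6 HFC arrays. The second probe gave -0.56 for HF5 (p = 0.349), -0.99 for HF20 (p = 0.105), -1.06 for HF75 (p = 0.0829) and -0.87 for the doses together (p = 0.0818). Against LFC, the doses together gave -0.19 on the main probe (p = 0.662) and -0.26 on the second (p = 0.5937).

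**Figure D3:**
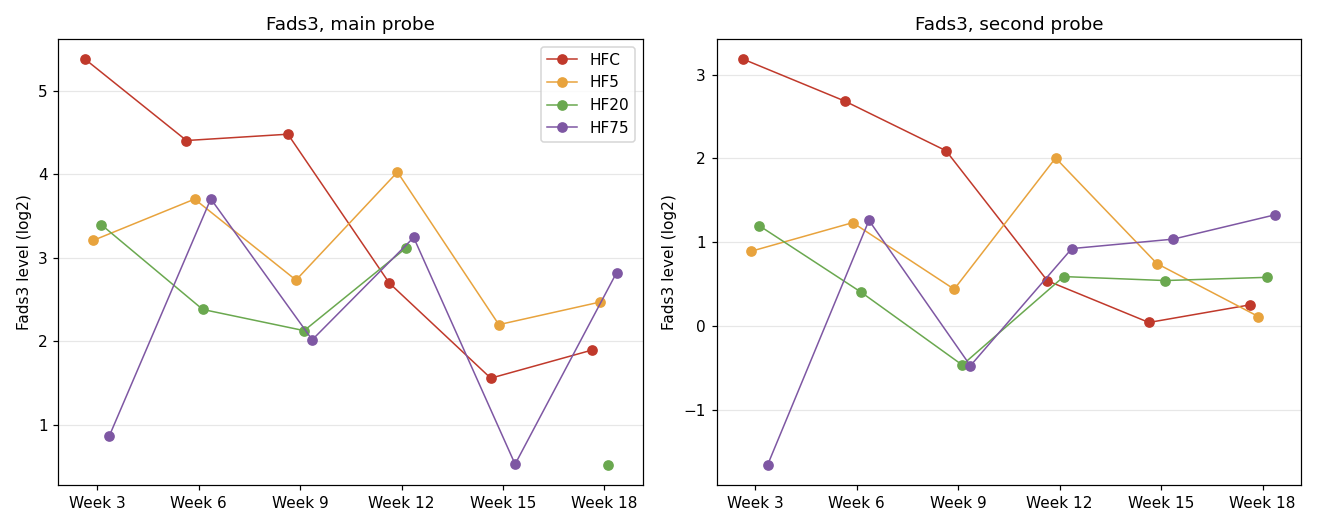
Fads3 level (log2) from Week 3 to Week 18 on HFC and the KAL-1 diets, with the main probe on the left and the second probe on the right. On both probes the HFC level was highest at Week 3 to Week 9 and lower from Week 12 on, and the HF75 level was low at Week 3.

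On the main probe, Week 3 carried much of the HF75 value, which was -0.544 without that week (p = 0.25), and the doses together gave -0.618. The HF20 value had p = 0.0825 without Week 6 and p = 0.0921 without Week 9, and it was -1.19 (p = 0.0542) when the labels of HF5 and HF20 at Week 12 were swapped. All 8 skeletal muscle markers were above 0 against HFC in each dose, with a median of 2.603 in HF5, 2.258 in HF20 and 3.247 in HF75, and 3, 2 and 5 of them reached an unadjusted p under 0.05. Of the 8 macrophage markers, 7 were below 0 in HF20 (median -0.662, 0 at that p) and 7 in HF75 (median -0.694, 2 at that p), and of the 8 adipocyte markers 7 were below 0 in HF20 (median -0.634, 1 at that p) and 5 in HF75 (median -0.261, 0 at that p). In HF20, 7 of 7 lymphocyte (median 1.485, 1 at that p) and 7 of 7 Schwann cell and myelin markers (median 0.956, 0 at that p) were above 0. In HF75, 5 of 5 adipose progenitor markers were below 0 (median -0.57, 0 at that p). Over 38 arrays the main Fads3 probe had r = 0.43 (rho = 0.37) with the summed adipocyte level, 0.21 (rho = -0.07) with that of macrophages and -0.22 (rho = -0.18) with that of muscle, a description over arrays that share their scaling. The part of these cells in the Fads3 differences was not tested. Without the 2 arrays of highest muscle marker level, HF75 Week 3 (10.58) and HF5 Week 12 (9.50), the Fads3 difference of the main probe was -1.40 for HF20 (p = 0.0138), -0.791 for HF75 (p = 0.144) and -0.858 for the doses together (p = 0.0498).

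Scd1 from Week 3 to Week 18 was 2.89, 3.43, 5.43, 6.28, 2.67 and 2.54 on HF5, 2.83, 1.89, 4.81, 5.51, 1.30 and 4.54 on HF20, and 2.42, 3.03, 3.90, 4.82, 3.15 and 5.56 on HF75. HF20 and HF75 lay below LFC in 6 of 6 weeks. HF5 did in 5 of 6, and at Week 12 the LFC spot was saturated, so that the order cannot be read there. Against LFC, the doses together had a difference of -1.23 (SE 0.57, 2.35-fold, limma p = 0.0402, adjusted p = 1). The p was 0.058 to 0.0914 without Week 6, Week 9, Week 15 or Week 18. Against HFC the difference was -0.93 (SE 0.57, p = 0.115, adjusted p = 1). Each dose was below HFC at Week 3 (differences of -3.23 or lower), Week 6 and Week 9 and above it at Week 12 and Week 15. At Week 18 HF5 was below HFC, and HF20 and HF75 were above it. The difference from HFC thus changed sign within these weeks. The fitted difference from HFC was -1.40 without Week 12, and leaving out Week 3 or Week 6 gave -0.431 or -0.372. The HFC spots of Week 3 and Week 6 were saturated, so the HFC levels there are lower bounds. With saturated spots left out, which drops these 2 highest of the 6 HFC levels because they are bright, the value was 0.407 (p = 0.435). Beside the Scd1 differences, adipocyte markers had 5 of 8 below 0 against LFC (median -0.115) and 6 of 8 against HFC (median -0.392, 1 at an unadjusted p under 0.05). Muscle markers had 8 of 8 above 0 against LFC (median 0.847) and against HFC (median 2.571, 4 at that p). Lymphocyte markers had 7 of 7 below 0 against LFC (median -1.094) and 7 of 7 above 0 against HFC (median 0.865). The part of these cells was not tested.

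Scd2 was 2.63, 2.11, 1.54, 1.94, 1.71 and 1.21 on HF5, 2.71, 2.61, 1.77, 2.30, 1.99 and 1.92 on HF20, and 1.49, 0.75, 1.50, 2.78, 3.28 and 1.60 on HF75. The doses together differed by -0.73 from HFC (SE 0.40, limma p = 0.0787, adjusted p = 1) and by -0.82 from LFC (SE 0.40, p = 0.0508, adjusted p = 1). The latter was -0.308 without Week 12, where the LFC level was 5.72. Scd3 was well above background on 4 of 6 HF5 arrays, 3 of 6 HF20 arrays and 2 of 6 HF75 arrays, and the doses together differed from HFC by 0.82 (SE 0.60, p = 0.184), which was 0.302 without Week 12 and 1.65 without Week 18. Fads1, Fads2, Elovl1 and Elovl5 differed from HFC by -0.33 to 0.02 over the doses together, with unadjusted p of 0.336 or more.

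Over the KAL-1 comparisons, no gene passed limma at an adjusted p of 0.05 (0% of 21087 genes in each). At an unadjusted p under 0.05, the count was 0 of 8 for HF5 against HFC (1.36% of all genes), 1 of 8 for HF20 (4.22%), 1 of 8 for HF75 (5.02%), 1 of 8 for the doses together against HFC (4.51%) and 1 of 8 for the doses together against LFC (3.47%). The gene was Fads3 against HFC and Scd1 against LFC, lower on KAL-1 each time. With 7 of 8 below 0, the median of the 8 genes against LFC was -0.403, beside -0.024 over all genes. By the mean of Week 3 to Week 18, the gap from the highest to the lowest of the 5 diets was 1.47 for Scd1, 0.954 for Scd2, 1.87 for Scd3, 1.21 for Fads3 and 0.342 to 0.641 for the other 4 genes. For Scd1, Scd2 and Fads2 the order was LFC, then HFC, then the 3 KAL-1 diets, where the Scd1 means of LFC and HFC hold saturated spots and their order with each other cannot be read. In none of the 32 pairs of neighbouring diets in these orders was the gap larger than the pooled SD. Over weeks, averaged across diets, 0 of 8 genes reached an unadjusted p under 0.05 for a change per week (5.18% of all genes), with Fads3 at -0.10 per week on the main probe (SE 0.05, p = 0.0707; -0.066 without Week 15), -0.0055 on its second probe (p = 0.8818) and Scd3 at 0.09 (SE 0.04, p = 0.0709).

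**Figure D4:**
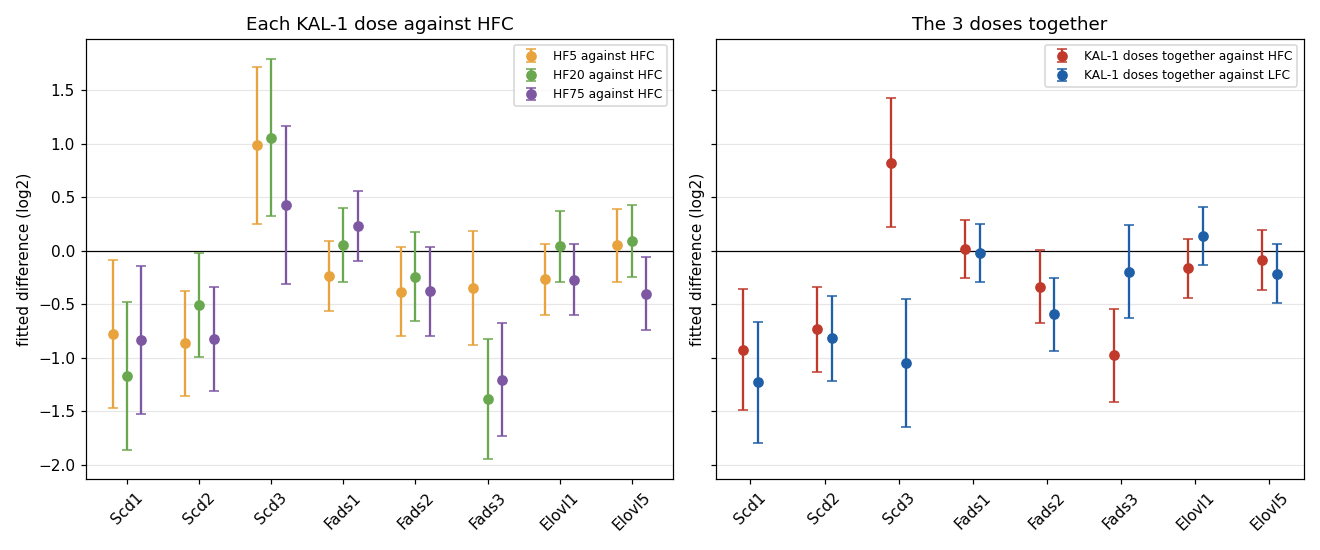
Fitted difference ± SE (log2) of each gene from Week 3 to Week 18, for each KAL-1 dose against HFC (left) and for the doses together against HFC and LFC (right). Fads3 was at -1.38 in HF20 and -1.20 in HF75 against HFC, and Scd1 and Scd2 were below 0 in all 5 comparisons.

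Elovl1 and Elovl5 were the steadiest of the 8 genes within LFC. Elovl1 was 2.79, 2.99, 2.87 and 3.42 from Day 6 to Week 0 and 2.72, 3.45, 2.68, 2.26, 2.85 and 2.20 from Week 3 to Week 18 on LFC, and 2.44, 1.97, 2.65, 3.26, 2.87, 3.21, 3.11, 2.88, 2.75 and 3.15 at the same time points on HFC. Elovl5 ran from 2.76 to 4.05 on LFC and from 2.65 to 3.64 on HFC after Day 1. On the 3 arrays with the highest muscle marker levels, Elovl1 was 1.09 on HFC Day 1, 0.94 on HF75 Week 3 and 1.44 on HF5 Week 12, its lowest levels. Elovl5 was lowest on the first 2 of these (1.26 and 1.12) and 3.26 on the last, near its median. Its next lowest levels were those of the KAL-1 diets at Week 9, 2.19 on HF5, 2.28 on HF75 and 2.58 on HF20. Over 39 arrays the Elovl1 level ran against the summed muscle marker level (Pearson r = -0.75, Spearman rho = -0.63), Elovl5 less so (r = -0.46, rho = -0.21), and Scd1 not (r = 0.16). The same 3 arrays were among the 4 lowest in summed macrophage level (2.17, 1.49 and 2.89), with which Elovl1 had r = 0.58 (rho = 0.29), and HFC Day 1 and HF75 Week 3 had the 2 lowest endothelial levels (3.55 and 3.72). These are descriptions over arrays that share scaling and tissue. The part of these cells in the levels was not tested. The Elovl5 probes correlated with r = 0.87, and they stood apart on HFC Day 6, with 2.65 on the main and -0.80 on the second probe.

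**Figure D5:**
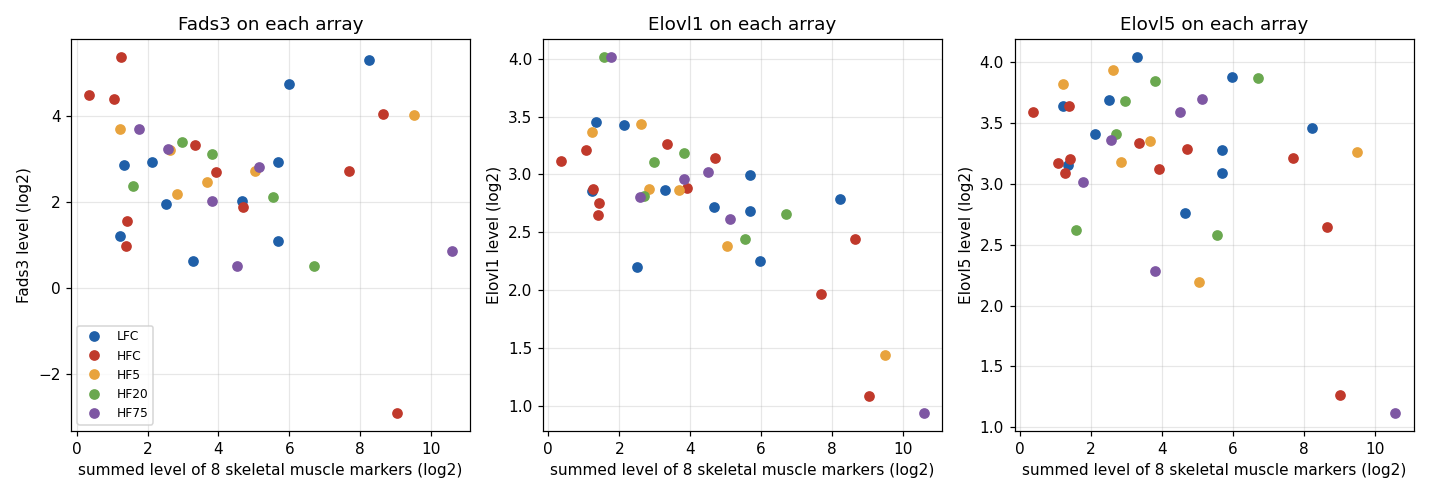
Level (log2) of Fads3, Elovl1 and Elovl5 on each array against the summed level of 8 skeletal muscle markers on that array (log2), by diet. The lowest Elovl1 levels (0.94, 1.09 and 1.44) lay on the 3 arrays with the highest muscle marker levels, and Fads3 had both high and low levels there.

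On the HFC array of Day 1, which had no LFC partner, Fads2 (-2.12), Fads3 (-2.90), Elovl1 (1.09) and Elovl5 (1.26) were below each of the other 10 HFC arrays, and Scd1 (1.66) and Scd2 (1.66) were each above 1 of them. Scd3 (-4.55, well above background) and Fads1 (-0.04) were each above 8 of them. With a muscle marker level of 9.03, this array also had an adipocyte marker level of 7.14, the fourth lowest of 39, a macrophage level of 2.17, the second lowest, and an endothelial level of 3.55, the lowest.

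Among the other elongases and desaturases, Elovl6, which elongates palmitate to the stearate that Scd1 uses, had a difference of -1.99 between HFC and LFC over 10 time points (SE 0.62, limma p = 0.0074, adjusted p = 0.803). Between the KAL-1 diets together and LFC its difference was -2.42 (SE 0.55, p = 0.00023, adjusted p = 1). From Week 3 to Week 18 its lowest, median and highest levels were -0.22, 1.38 and 6.05 on LFC, -0.89, -0.52 and 2.21 on HFC, -0.99, -0.65 and -0.38 on HF5, -0.79, -0.16 and 0.58 on HF20, and -1.04, -0.45 and 0.20 on HF75. The 4 diets with high fat thus had medians below 0 and LFC a median above 1. Elovl3, a gene of brown fat and of sebaceous gland, was well above background from Week 3 to Week 18 on 3 of 6 LFC arrays, 0 of 6 HFC, 0 of 6 HF5, 3 of 6 HF20 and 2 of 6 HF75 arrays. Its lowest, median and highest LFC levels were -6.72, -4.27 and -1.28, and those of HFC, all not well above background, were -8.63, -7.60 and -7.02. Beside this, the summed level of 5 brown and beige fat markers had a median of 5.02 on LFC (-0.74 to 7.73 over its 10 arrays) and 2.59 on HFC (0.40 to 7.33 over its 11 arrays), and its part was not tested.

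The counts at an unadjusted p under 0.05 that follow stand beside shares of all genes of 5.86% for HFC against LFC, 3.47% for KAL-1 against LFC, 4.51% for KAL-1 against HFC and 8.82% for late against early. Of the fatty acid synthesis genes, which make the substrates of the desaturases, 8 of 8 tested were below 0 in HFC against LFC over 10 time points (median -0.99), with 1 at an unadjusted p under 0.05, Acly, which makes cytosolic acetyl-CoA (-1.47, SE 0.57, p = 0.0245). On the KAL-1 diets together against LFC, 9 of 9 were below 0 (median -1.38) and 6 reached that p, namely Acly (-1.64), Acaca (-1.75), Fasn (-1.04), Me1 (-1.37), Acss2 (-1.82) and Slc25a1 (-1.78), which between them supply and carry out fatty acid synthesis. Beside these, lymphocyte markers had 7 of 7 below 0 on KAL-1 against LFC. Between HFC and LFC, 8 of 8 macrophage markers (median 0.581, 3 at an unadjusted p under 0.05) and 7 of 8 adipocyte markers (median 0.441, 1 at that p) were above 0. Below 0 were 6 of 6 lymphocyte (median -0.961), 7 of 7 Schwann cell and myelin (median -0.921) and 5 of 5 brown and beige fat markers (median -0.738). So were 8 of 8 skeletal muscle markers (median -0.793, 0 at that p) and 3 of 3 red blood cell markers (median -0.573, 2 at that p). Their part in the fatty acid synthesis differences was not tested. The 12 regulators, Srebf1, Nr1h3 and Mlxipl among them, had none at that p between HFC and LFC or on KAL-1, and the median was 0.071 between HFC and LFC. Of the elongation and desaturation partners, 0 of 9 reached it between HFC and LFC, and Cyb5b did on KAL-1 against LFC (-0.77, SE 0.30, p = 0.0192). Cyb5a, the other cytochrome b5 of this list, was not named on the array. In sterol synthesis, which shares the SREBP drive, 0 of 8 reached it between HFC and LFC, and Hmgcs1 did between KAL-1 and HFC (-0.77, SE 0.28, p = 0.0116), with 8 of 8 below 0. Between late and early, 3 of 8 did (Fdft1, -1.40, Fdps, -1.14, and Cyp51, -1.11), each with the sign of Fads1. In that comparison 1 of the 12 regulators reached it as well (Ppara, -2.04). So did 1 of the 12 users of unsaturated acyl chains, with the opposite sign (Soat1, 0.74). Of the 12 users of unsaturated acyl chains, Pla2g4a, which releases arachidonate, reached it between HFC and LFC (1.03, SE 0.41, p = 0.0281). None of these p passed adjustment over all genes.

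The genes whose levels were most like those of a member were sought among 11745 genes well above background and unsaturated on all 39 arrays. By Pearson r over the arrays they were Cdo1 (0.87) for Scd1 after LOC100047653 (0.92), Idi1 (0.79) for Scd2, Acsf2 (0.87) for Scd3, Ykt6 (0.87, 38 arrays) for Fads1, Kctd17 (0.74) for Fads2, Chchd6 (0.84, 37 arrays) for Fads3, Lxn (0.89) for Elovl1 and Dock1 (0.87) for Elovl5 after LOC100048055 (0.88). With each time point's mean taken out, the leading genes were Mrap (0.84) for Scd1, Rdh11 (0.80) for Scd2, Slc22a18 (0.79) for Fads2, Chst1 (0.83) for Fads3, Strn4 (0.87) for Elovl1 and Fabp5 (0.86) for Elovl5. Idi1, a sterol synthesis enzyme, stayed among the first 3 for Scd2 in both measures, with r = 0.75 in the second.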

How the data were processed

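Total RNA of subcutaneous fat was labelled with Cy3 and hybridised to Agilent arrays, 39 in all, 1 per diet and time point. The authors deposited scanner files made with Agilent Feature Extraction (version 10.5.1.1 per the file headers, 9.1 in the submitters' processing notes), from which the processed signal intensity was used. They also deposited a table of log2 ratios, used only to check the Week 12 labels.

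Control spots and spots flagged as outliers were left out, saturated spots were kept, log2 signals were centred on the 75th percentile of each array, and spots of 1 probe were averaged. A gene was represented by its probe with the highest mean. A gene entered a fit if the number of arrays where it was well above background reached the array count of the smallest diet in that fit. These were 19873 genes for the LFC and HFC fits and 21087 from Week 3 to Week 18, with all 8 members in both. Differences were tested with limma 3.58.1 in R 4.3.3 (lmFit and eBayes, two-sided, time point as block, Benjamini-Hochberg over all genes, threshold 0.05), and the fits were tested on simulated data. Late against early and the change per week were fitted on time point means. Since labels do not tell separate animals apart, p-values measure the spread between these arrays, and the number of arrays limits the precision.

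The 8 genes, the pathway and marker lists and the comparisons were chosen with earlier results of these data known. Named pathway genes are those with an unadjusted p under 0.05, up to 6 per list. Probe names were those of the array design, and all 10 probes had the same symbol in RefSeq. The alternatives were normexp background correction, quantile normalization, other filters, saturated or outlier spots handled otherwise, an intensity trend, scan day or slide as a block, no block, the methods' t-test, every probe on its own and leaving out each time point.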

Additional observations from a re-analysis of the deposited data

How the results depend on the processing

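Since no member difference passed adjustment, keeping to that side of the threshold says nothing about stability. Of 418 values of 21 member differences under an alternative, 415 kept their sign and stayed short of it. The Scd1 difference between the KAL-1 doses together and HFC turned from -0.93 to 0.407 with saturated spots left out. That setting removes the HFC spots of Week 3 and Week 6 because they are bright, so it cannot decide the direction. The value of -0.93 depended on the weeks used as well, being -0.372 without Week 6 and -1.405 without Week 12. The Fads3 difference between HF5 and HFC ranged from -0.681 to 0.019 when each time point was left out, the last without Week 3. The Fads3 difference between HF20 and HFC was -1.95 with normexp background correction (limma adjusted p = 0.0178), a setting in which 8080 genes passed for HF20 against HFC in place of 0, and the cause was not tested. Between late and early, the number of genes that passed was 1 with normexp, 1 with only genes well above background on every array, 44 with single arrays in place of time point means, and 0 to 1 when each time point was left out. For the change per week it was 20 with single arrays. Counts at an unadjusted p under 0.05 moved more. For HFC against LFC over 10 time points the count was 1165, and 422 (the methods' t-test) to 3372 (normexp) under alternatives. Late minus early had 375, and 137 to 872. Late against early had 1752, and 991 to 2654. HFC against LFC from Week 3 to Week 18 had 1067, and 368 to 2392. HF5 had 287, and 115 to 1072. HF20 had 890, and 409 to 10168. HF75 had 1059, and 510 to 1932. The doses together had 951 against HFC, and 493 to 4809, and 731 against LFC, and 220 to 1232. The change per week had 1092, and 242 to 3359. Without the time point as a replicate block, 0 genes passed in each comparison fitted that way, which leaves out late against early and the change per week. The Scd3 difference between HFC and LFC then had limma p = 0.027 in place of 0.000852. The exchange of the Week 12 arrays of HF5 and HF20, the fits without the HF20 array of Week 15 or without the 2 arrays of highest muscle marker level, and the Scd3 mean over time points above background were chosen after seeing the data. Slide as a random block was not run for the fits of LFC and HFC alone, where 1 pair of arrays shared a slide. Dim signal limits Scd3 and Elovl3, and saturation limits Scd1.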
